A study of Homo sapiens with 6 samples.

Results

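The genes of the proteasome were compared between A549 cells carrying an shRNA against S100A4 and A549 cells carrying a control shRNA. A gene was taken if its symbol in the authors' annotation was PSM followed by A, B, C, D, E, F or G and a number, and where a gene had several transcript clusters (sets of probes for a transcribed locus) the brightest cluster on average across the 6 arrays was kept. This gave 48 genes of 25141 in all: 19 of the core particle, 17 of the regulatory particle, 5 activators and inhibitors, and 7 assembly factors. A549 cells are a long-established line from a human lung adenocarcinoma. The S100A4 shRNA group holds 3 arrays of A549 cells with a stably expressed lentiviral shRNA targeting S100A4, and the control shRNA group holds 3 arrays of A549 cells with a stably expressed lentiviral control shRNA. All cells were grown in DMEM/F12 with 10% serum to about 70% confluence, for 3 days by the sample description and 2 days by the treatment protocol. The labels name the arrays as biological replicates and name 1 shRNA per group, so the p-values rest on the spread among these arrays alone, and other shRNAs or other lines made with them were not compared.

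The proteasome degrades proteins that carry ubiquitin chains. Its core particle is a barrel of stacked alpha and beta rings with the proteolytic sites inside. The regulatory particle caps the barrel and has a base, whose ATPases unfold the substrate and open the gate, and a lid, which removes the ubiquitin. Activators can cap the barrel in place of the regulatory particle, and dedicated chaperones assemble both particles. Tumour cells are known to depend on proteasome activity.

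Values are log2 signals on a whole-transcript array, and differences are log2 folds of S100A4 shRNA over control shRNA. A gene was called when limma's Benjamini-Hochberg adjusted p over all 25141 genes was under 0.05. Array medians over genes lay between 5.48 and 5.52, and arrays correlated across genes at r between 0.9966 and 0.9978 within a group and between 0.9926 and 0.9945 across groups. Negative housekeeping probe sets, which serve as controls on the array, had medians between 4.18 and 4.27. The positive housekeeping control probe sets had a median of 13.32 ± 0.13 with S100A4 shRNA and 13.54 ± 0.06 with control shRNA (SD, n = 3 each), a difference of -0.23 (exact permutation p = 0.1, two-sided, which is the lowest possible with 3 arrays a group). The target S100A4 read 5.74, 5.51 and 5.44 with S100A4 shRNA and 7.57, 7.12 and 7.18 with control shRNA. That is a log2 fold of -1.73 (SE 0.13, limma adjusted p = 0.000453, exact permutation p = 0.1, two-sided). Of 8 epithelial markers KRT7, KRT8 and KRT18 had group means above 14 in both groups. EPCAM and KRT19 were low, with means over all arrays of 5.97 and 6.32, and CLDN4 and MUC1, at 4.75 and 4.66, lay near the negative control medians. In this list KRT8 (log2 fold -0.44) and KRT18 (-0.58) were called lower, CDH1 (0.97) and KRT19 (0.42) were called higher, and 4 were not called. The mean of 10 leukocyte markers lay between 4.02 and 4.11 on the S100A4 shRNA arrays and between 4.14 and 4.16 on the control shRNA arrays, below the negative control medians. Fibroblast markers averaged between 4.54 and 4.62 with S100A4 shRNA and between 4.55 and 4.66 with control shRNA, and endothelial markers between 3.91 and 4.05 with S100A4 shRNA and between 3.96 and 4.07 with control shRNA.

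Promoter sequences are shown for the pair of called falls with the largest log2 folds that matched the RefSeq promoter table, and for the called members whose promoter holds the motif TGACNNNGC, the core of the antioxidant response element to which NFE2L1 and NFE2L2 are known to bind. NFE2L1 is the factor known to raise proteasome genes when proteasome activity is low. Each line gives the 250 bases before the gene's start in RefSeq on GRCh38.p14, 5′ to 3′ on the gene's strand, with matches on either strand to TGACNNNGC, to CCAAT (the NF-Y box) or to CCGGAAG (an ETS motif) in capitals. PSMA4 is at chr15:78540155-78540404 (+), PSMD1 at chr2:231056617-231056866 (+), PSMD12 at chr17:67366578-67366827 (-), PSMG1 at chr21:39183452-39183701 (-) and PSME1 at chr14:24135944-24136193 (+).
PSMA4: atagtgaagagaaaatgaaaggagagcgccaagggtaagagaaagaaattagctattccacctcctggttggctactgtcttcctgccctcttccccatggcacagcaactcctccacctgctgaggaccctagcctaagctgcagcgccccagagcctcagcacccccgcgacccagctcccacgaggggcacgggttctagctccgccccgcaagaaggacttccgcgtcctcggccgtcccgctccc
PSMD1: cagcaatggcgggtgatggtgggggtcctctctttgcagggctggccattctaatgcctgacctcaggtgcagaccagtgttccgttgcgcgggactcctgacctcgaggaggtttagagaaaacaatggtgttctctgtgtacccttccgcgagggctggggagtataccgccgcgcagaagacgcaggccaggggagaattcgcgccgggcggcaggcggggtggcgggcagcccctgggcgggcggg
PSMD12: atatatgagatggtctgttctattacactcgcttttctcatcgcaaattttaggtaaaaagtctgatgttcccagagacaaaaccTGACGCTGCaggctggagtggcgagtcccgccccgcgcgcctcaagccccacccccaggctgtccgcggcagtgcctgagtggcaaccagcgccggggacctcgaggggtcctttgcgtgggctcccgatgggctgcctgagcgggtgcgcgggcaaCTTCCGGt
PSMG1: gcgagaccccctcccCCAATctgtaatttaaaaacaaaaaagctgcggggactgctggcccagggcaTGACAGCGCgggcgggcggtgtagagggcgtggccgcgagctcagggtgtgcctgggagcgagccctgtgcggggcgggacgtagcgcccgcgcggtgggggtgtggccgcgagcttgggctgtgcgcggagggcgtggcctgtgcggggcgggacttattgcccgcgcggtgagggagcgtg
PSME1: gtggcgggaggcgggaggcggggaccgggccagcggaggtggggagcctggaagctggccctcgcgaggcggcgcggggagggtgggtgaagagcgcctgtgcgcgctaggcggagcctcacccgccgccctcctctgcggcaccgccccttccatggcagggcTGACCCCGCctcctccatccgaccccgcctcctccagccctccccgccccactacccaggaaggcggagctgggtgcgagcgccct
The windows of PSMA4 and PSMD1, the falls with the largest log2 folds, hold none of the 3 motifs. In PSMD12 the TGACNNNGC match begins at position -165, counted from the gene's start, and in PSMG1 at -183. In PSME1, the only called rise, it begins at -86. Of the 48 members 42 matched the promoter table, and TGACNNNGC stood in 11 of these (26.2%), against 11% of 27305 promoters of the same length. CCAAT stood in 18 members (42.9%, against 33% of all promoters) and CCGGAAG in 10 (23.8%, against 8.82%). Among the 12 matched members that were called lower, TGACNNNGC stood in 2 (16.7%), and among the 29 matched members that were not called, in 8 (27.6%). The windows of core and regulatory particle genes held TGACNNNGC in 2 of 15 and 2 of 16. CCGGAAG stood in 6 of 16 regulatory particle windows and 1 of 15 core windows. By call, however, CCGGAAG stood in 2 of the 12 members called lower (16.7%) and 8 of the 29 not called (27.6%). CCAAT stood in 6 of 12 (50%) and 12 of 29 (41.4%). These matches are descriptions of the letters in a window. The motifs, and the promoters shown, were chosen after the members' values were seen.

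Of the 48 proteasome genes 13 fell with S100A4 shRNA, 1 rose and 34 were not called. Of the 13 falls 9 were in the regulatory particle, 2 in the core particle and 2 among the assembly factors. The share of all genes called lower was 5.49% and the share called higher 6.08%. Of the upper 50% of genes by mean signal, where 45 of the 48 members lay, 9.11% were called lower and 11.3% higher. That set is not matched to the members on signal, with a median level of 7.8 against 10.42 for the members. Of the members 27.1% were called lower and 2.08% higher. Of the members, 38 (79.2%) had a log2 fold below 0, against 58.7% of all genes and 47.8% of the upper 50% of genes by mean signal. The median was -0.135, against -0.034 over all genes and 0.011 over those brighter genes. The groups did not overlap for 19 members lower with S100A4 shRNA (18.5% of all genes) and 2 members higher (14.3% of all genes). All 14 called members were among these 21. The count of falls was 8 without control shRNA replicate 1 and 6 without control shRNA replicate 3, and the authors' deposited table gave 0 called members, as described below.

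**Figure D1:**
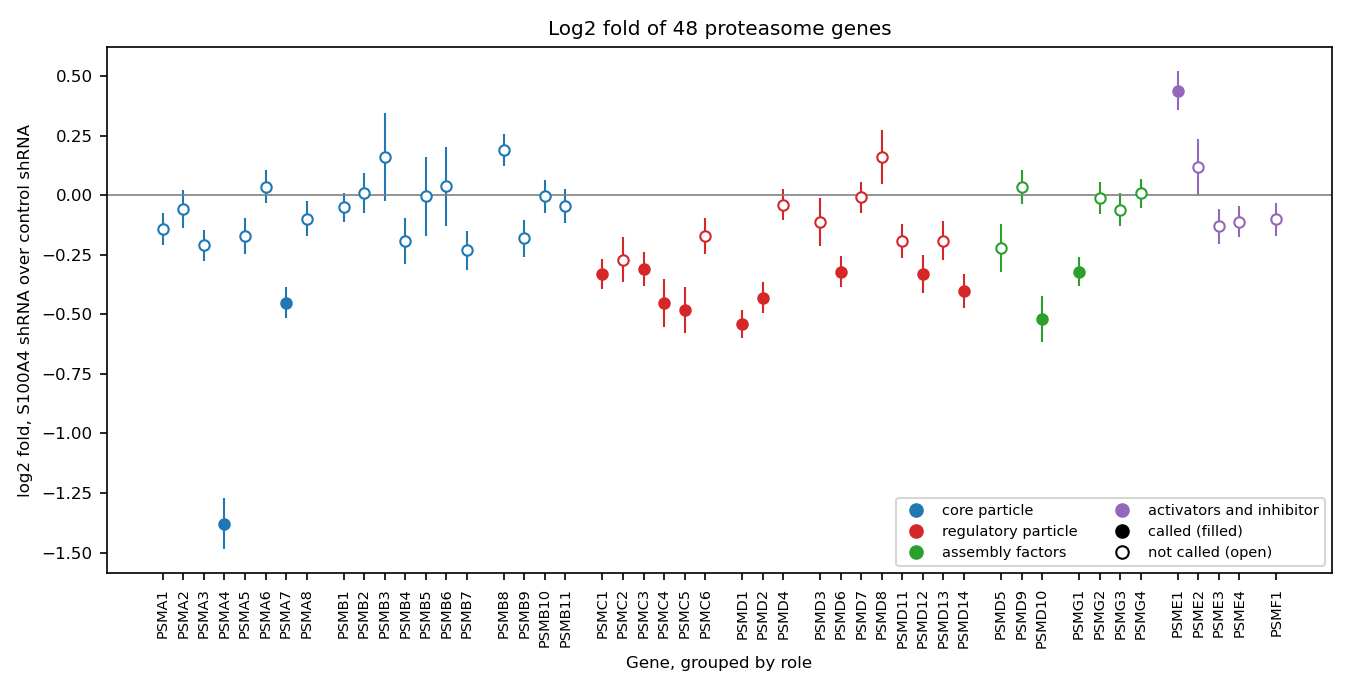
Log2 fold of S100A4 shRNA over control shRNA (y axis) for the 48 proteasome genes, grouped by role (x axis). Points are limma estimates with bars of 1 SE, filled where called. PSMA4 lies lowest at -1.38, 16 of 17 regulatory particle genes (red) lie below 0, and PSME1 is the only filled point above 0.

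In the regulatory particle 9 of 17 genes fell, 0 rose and 8 were not called, with a median log2 fold of -0.312. The share called lower was 52.9%, against 5.49% of all genes and 9.11% of the brighter genes described above. Of the 6 base ATPases 4 fell and 2 were not called. PSMC5 read 9.29, 9.26 and 9.60 with S100A4 shRNA and 9.89, 9.88 and 9.81 with control shRNA, a log2 fold of -0.48 (SE 0.097, limma adjusted p = 0.0198). PSMC4 read 14, 13.9 and 14.19 with S100A4 shRNA and 14.51, 14.33 and 14.59 with control shRNA, a log2 fold of -0.45 (limma adjusted p = 0.0284). Every S100A4 shRNA array was below every control shRNA array for both ATPases. PSMC1 read 12.39, 12.35 and 12.41 with S100A4 shRNA and 12.76, 12.64 and 12.74 with control shRNA, a log2 fold of -0.33 (limma adjusted p = 0.0141). PSMC3 read 9.28, 9.24 and 9.21 with S100A4 shRNA and 9.61, 9.43 and 9.63 with control shRNA, a log2 fold of -0.31 (limma adjusted p = 0.0304). Neither gene's groups overlapped. The other ATPases, PSMC2 and PSMC6, had log2 folds of -0.27 and -0.17 (limma adjusted p = 0.112 and 0.188) and were not called, though the groups of PSMC2 did not overlap either. The calls of PSMC5 and PSMC3 were each lost when any of 5 arrays was left out, that of PSMC4 with any of 4 and that of PSMC1 with 1, with limma adjusted p up to 0.114.

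The large scaffold subunits of the base were called with the smallest p-values of the regulatory particle. PSMD1, a large scaffold of the base, read 12.07, 12.05 and 11.99 with S100A4 shRNA and 12.59, 12.58 and 12.56 with control shRNA. It was 1.45-fold lower, with a log2 fold of -0.54 and an SE of 0.057 (limma adjusted p = 0.00152). The SD was 0.04 with S100A4 shRNA and 0.02 with control shRNA, well under that difference. PSMD2, a scaffold that docks ubiquitin shuttle proteins, read 10.32, 10.21 and 10.35 with S100A4 shRNA and 10.77, 10.74 and 10.67 with control shRNA (log2 fold -0.43, limma adjusted p = 0.00609). Both stayed called when any 1 array was left out. PSMD4, a ubiquitin receptor, was not called (log2 fold -0.040, 95% interval -0.19 to 0.11).

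In the lid 3 of 8 genes fell (37.5%, against 5.49% of all genes and 9.11% of the brighter genes) and 5 were not called. PSMD14, the metalloprotease that cuts ubiquitin off the substrate, read 11.57, 11.43 and 11.53 with S100A4 shRNA and 11.92, 11.99 and 11.82 with control shRNA (log2 fold -0.40, SE 0.071, 1.32-fold lower, limma adjusted p = 0.0111). It stayed called when any 1 array was left out. PSMD6, a structural lid subunit, read 8.48, 8.44 and 8.61 with S100A4 shRNA and 8.86, 8.82 and 8.83 with control shRNA (log2 fold -0.32, limma adjusted p = 0.0187). PSMD12, another structural lid subunit, read 10.88, 10.67 and 10.64 with S100A4 shRNA and 11.06, 11.10 and 11.01 with control shRNA (log2 fold -0.33, limma adjusted p = 0.0355). The groups of these 3 genes did not overlap, while the call of PSMD6 was lost when any of 4 arrays was left out and that of PSMD12 when any of 5 was. The remaining lid genes had log2 folds of -0.19 (PSMD11), -0.19 (PSMD13), -0.11 (PSMD3), -0.0075 (PSMD7) and 0.16 (PSMD8), and none was called. PSMD7, the partner of PSMD14 in the lid's enzymatic pair, had a 95% interval of -0.16 to 0.14. Quantile normalisation and cyclic loess turned its sign.

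**Figure D2:**
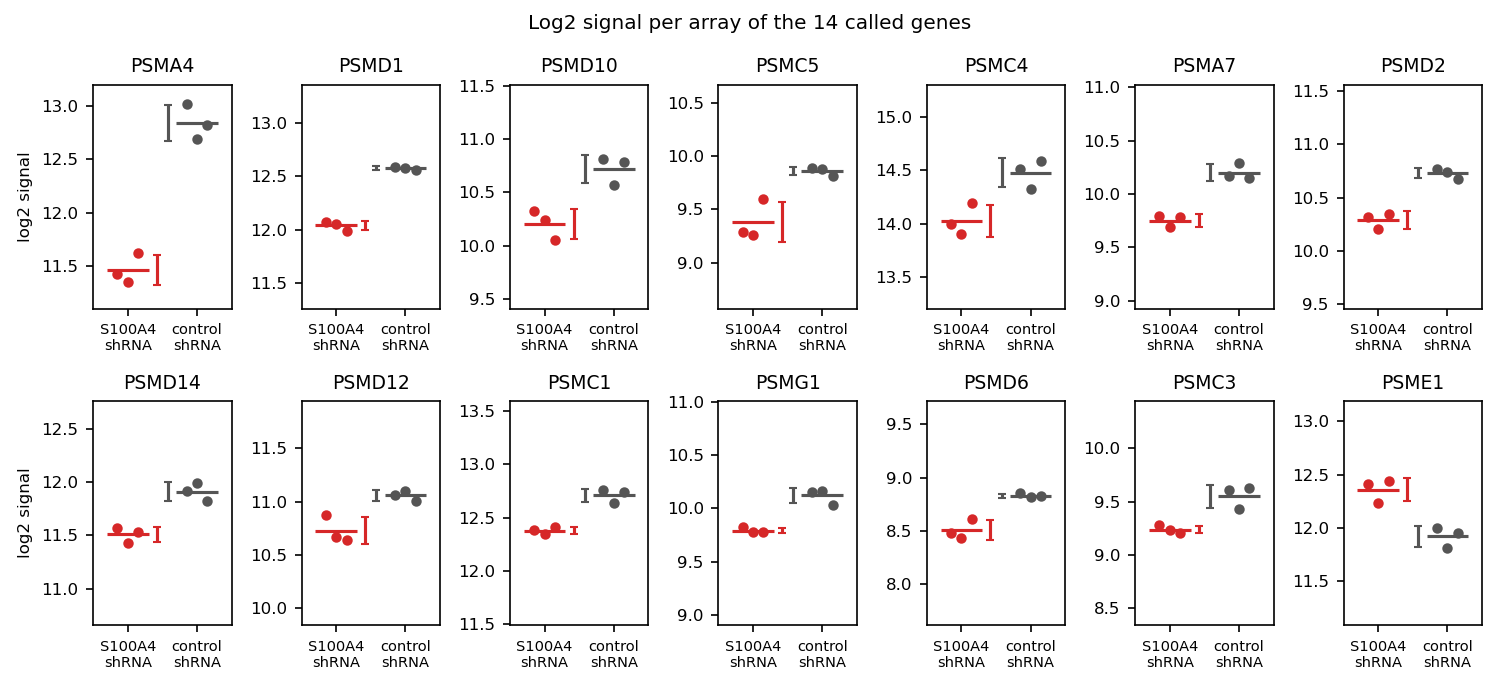
Log2 signal (y axis) on each array of the 14 called genes, with S100A4 shRNA in red on the left and control shRNA in grey on the right. Each panel spans the same range, horizontal lines are group means and bars are 1 SD (n = 3 arrays). In every panel the groups are separate, with PSMA4 the widest apart and PSME1 the only gene higher with S100A4 shRNA.

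In the core particle 2 of 19 genes fell, 0 rose and 17 were not called, with a median log2 fold of -0.057. The share called lower was 10.5%, against 5.49% of all genes. It lay near the 9.11% of the brighter genes described above. Over the 14 constitutive core genes (PSMA1 to PSMA7 and PSMB1 to PSMB7) the median was -0.101. PSMA4, a subunit of the alpha ring, read 11.42, 11.35 and 11.62 with S100A4 shRNA and 13.02, 12.69 and 12.82 with control shRNA. It averaged 11.46 ± 0.14 with S100A4 shRNA and 12.84 ± 0.17 with control shRNA (SD, n = 3 each). It was 2.60-fold lower, with a log2 fold of -1.38 and an SE of 0.11 (limma adjusted p = 0.000467). By log2 fold it ranked 22 among the falls of all genes, and it stayed called without any 1 array (limma adjusted p at most 0.00379). Its neighbours in order of start among measured protein-coding genes, HYKK and CHRNA5, were not called, at log2 folds of 0.24 and 0.10 (limma adjusted p = 0.0649 and 0.434). PSMA7, another alpha ring subunit, read 9.79, 9.69 and 9.78 with S100A4 shRNA and 10.17, 10.29 and 10.15 with control shRNA. Its log2 fold was -0.45 (SE 0.067, limma adjusted p = 0.00584), and it too stayed called when any 1 array was left out.

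The other alpha ring genes were not called. PSMA3 was closest, at 10.81, 10.82 and 10.96 with S100A4 shRNA and 11.07, 11.08 and 11.06 with control shRNA (log2 fold -0.21, limma adjusted p = 0.0807). PSMA1 had a log2 fold of -0.14, and its groups did not overlap either. PSMA5, PSMA2 and PSMA6 had log2 folds of -0.17, -0.057 and 0.037. PSMA8, which is known from testis, read between 3.97 and 4.06 with S100A4 shRNA and between 3.99 and 4.18 with control shRNA, about the level of the negative control probe sets.

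None of the 7 beta ring genes was called, and their median log2 fold was -0.003. Of the catalytic subunits, PSMB7, which carries the trypsin-like activity, read 12.04, 11.95 and 11.85 with S100A4 shRNA and 12.26, 12.05 and 12.22 with control shRNA (log2 fold -0.23, limma adjusted p = 0.124), with no overlap between the groups. PSMB5, the chymotrypsin-like subunit that proteasome inhibitor drugs bind, read 10.95, 10.74 and 10.77 with S100A4 shRNA and 11.12, 10.43 and 10.92 with control shRNA. Its log2 fold was -0.0031, and the wide spread of the control shRNA arrays left a 95% interval of -0.39 to 0.38. PSMB6, the caspase-like subunit, had a log2 fold of 0.039 and an interval of -0.35 to 0.43. Among the structural subunits PSMB4 read 7.77, 7.63 and 7.95 with S100A4 shRNA and 7.95, 7.89 and 8.09 with control shRNA (log2 fold -0.19, limma adjusted p = 0.259). PSMB3 had a log2 fold of 0.16, PSMB2 of 0.011 and PSMB1 of -0.050. The sign of PSMB2 turned with quantile normalisation and with cyclic loess, and that of PSMB5 with cyclic loess. PSMB1 had the narrowest interval of the beta ring, -0.19 to 0.09.

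The immunoproteasome subunits replace the catalytic subunits of the beta ring in immune cells and after interferon. PSMB8, which replaces PSMB5, read 5.84, 5.91 and 5.97 with S100A4 shRNA and 5.80, 5.65 and 5.72 with control shRNA (log2 fold 0.19, limma adjusted p = 0.124). PSMB9, which replaces PSMB6, read 5.76, 5.93 and 5.93 with S100A4 shRNA and 6.02, 5.99 and 6.16 with control shRNA (log2 fold -0.18, limma adjusted p = 0.182). Neither was called, although in the kept cluster of each gene the groups did not overlap, in opposite directions. PSMB10, which replaces PSMB7, had a log2 fold of -0.0040, and PSMB11, known from thymus, of -0.044, whose sign turned with quantile normalisation and with cyclic loess. Each of PSMB8 and PSMB9 had 8 clusters on the array, and their log2 folds ran from 0.18 to 0.19 for PSMB8 and from -0.20 to -0.13 for PSMB9. Most of these clusters belong to alternative versions of the same locus, as does the kept cluster of PSMB8. Some have identical values on all 6 arrays, so the clusters are not independent measurements. In some of the other clusters of each gene the groups overlapped. The mean change of PSMB8, PSMB9 and PSMB10 minus that of PSMB5, PSMB6 and PSMB7, each gene taken from its own control shRNA mean, was -0.092, 0.242 and 0.042 on the S100A4 shRNA arrays. On the control shRNA arrays it was -0.122, 0.162 and -0.040. These values overlap between the groups, and in each group replicate 1 was lowest and replicate 2 highest.

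The balance between core and regulatory particle was then set out per array, as the mean log2 signal of the 19 core genes minus that of the 17 regulatory genes. Its height has no meaning of its own, since probes of different genes differ in brightness, but its shift between arrays can be read. It was -1.865, -1.829 and -1.818 with S100A4 shRNA and -1.946, -1.968 and -1.941 with control shRNA, a difference of 0.114. Every S100A4 shRNA array was higher, so the regulatory genes were lower relative to the core genes. Without PSMA4 the difference was 0.183, and over the 14 constitutive core genes alone (PSMA1 to PSMA7 and PSMB1 to PSMB7) it was 0.072, with no overlap either way. The value of 0.114 thus includes dim genes, PSMA8 and PSMB8 to PSMB11, with mean signals between 4.07 and 5.97. The lowest regulatory gene had a mean signal of 8.67. The regulatory genes averaged 11.046, 10.954 and 11.065 with S100A4 shRNA and 11.333, 11.218 and 11.294 with control shRNA, a difference of -0.26. The core genes averaged 9.181, 9.125 and 9.246 with S100A4 shRNA and 9.387, 9.250 and 9.353 with control shRNA, a difference of -0.146. Without PSMA4 the core difference was -0.077 and the groups overlapped. The positive control probe sets moved with these genes, by -0.23, and their part in the falls was not tested. With quantile normalisation or cyclic loess between arrays, the regulatory particle had 9 genes called lower, and 15 of its 17 genes lay below 0. The control probe sets were not part of these scalings, so their shift under them is not known. No p-value was computed for these means, since the members were chosen with results known.

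**Figure D3:**
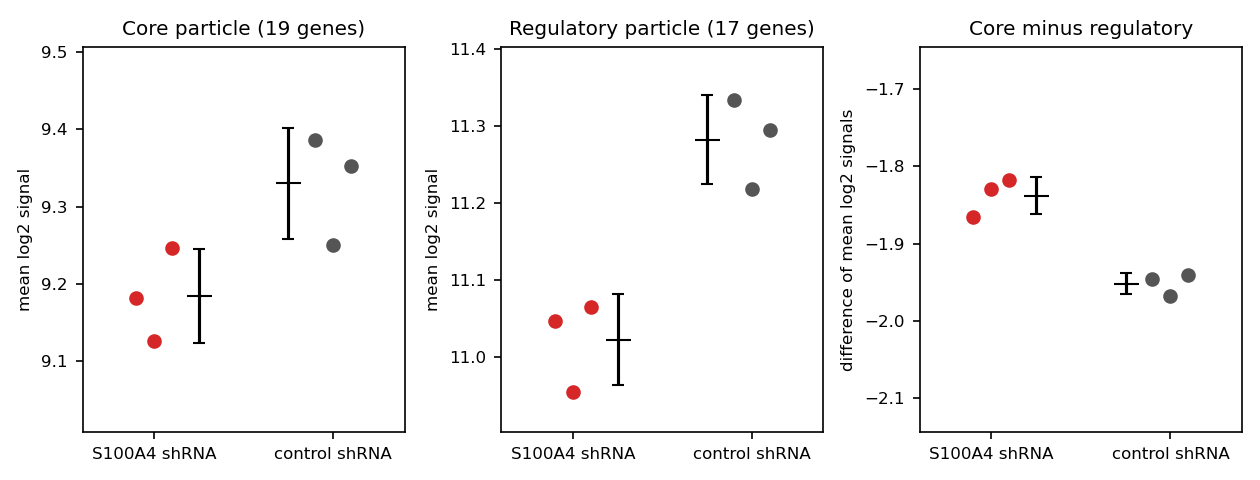
Mean log2 signal (y axis) of the 19 core particle genes, of the 17 regulatory particle genes, and their difference, on each array. Red points on the left are S100A4 shRNA arrays and grey points on the right are control shRNA arrays, with the mean and SD (n = 3) as black bars. The regulatory genes differ by -0.26 and the core genes by -0.146, so their difference is higher on every S100A4 shRNA array.

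Of the 7 assembly factors 2 fell (28.6%, against 5.49% of all genes and 9.11% of the brighter genes) and 5 were not called. PSMD10, also called gankyrin, is a chaperone of the base that binds PSMC4 and is known as an oncoprotein in liver. It read 10.32, 10.24 and 10.05 with S100A4 shRNA and 10.81, 10.57 and 10.78 with control shRNA (log2 fold -0.52, SE 0.096, 1.43-fold lower, limma adjusted p = 0.0137). The groups did not overlap, and the call was lost without control shRNA replicate 3 (limma adjusted p = 0.0573). The other base chaperones were PSMD5, at 11.99, 11.93 and 11.73 with S100A4 shRNA and 12.22, 11.92 and 12.17 with control shRNA (log2 fold -0.22, limma adjusted p = 0.220), and PSMD9 (log2 fold 0.035, which turned sign with quantile normalisation). PSMG1, which with PSMG2 starts the assembly of the alpha ring, read 9.82, 9.78 and 9.78 with S100A4 shRNA and 10.15, 10.16 and 10.03 with control shRNA (log2 fold -0.32, limma adjusted p = 0.0155). Leaving out control shRNA replicate 2, or replicate 3 of the S100A4 shRNA group, ended the call (limma adjusted p at most 0.0568). Its partner PSMG2 had a log2 fold of -0.011 (95% interval -0.17 to 0.15). The second chaperone pair, PSMG3 and PSMG4, had log2 folds of -0.060 and 0.0089. PSMG3 read 7.10, 7.15 and 7.31 with S100A4 shRNA and 7.25, 7.25 and 7.24 with control shRNA, so its groups overlapped.

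Among the activators PSME1 rose and 3 were not called. PSME1 forms, with PSME2, an interferon-inducible ring that opens the core without ATP. It read 12.41, 12.23 and 12.44 with S100A4 shRNA and 12, 11.81 and 11.95 with control shRNA (log2 fold 0.44, SE 0.083, 1.36-fold higher, limma adjusted p = 0.0147). The groups did not overlap, and leaving out replicate 1 or replicate 3 of the S100A4 shRNA group ended the call (limma adjusted p at most 0.0558). PSME2 read 9.96, 9.89 and 10.26 with S100A4 shRNA and 9.99, 9.73 and 10.02 with control shRNA (log2 fold 0.12, 95% interval -0.16 to 0.39), so its groups overlapped. PSME3, the nuclear relative of that pair, read 13.01, 12.94 and 13.12 with S100A4 shRNA and 13.21, 13.06 and 13.18 with control shRNA (log2 fold -0.13, limma adjusted p = 0.327). PSME4, a single-chain activator of nuclei, had a log2 fold of -0.11. The inhibitor PSMF1 read 10.65, 10.52 and 10.68 with S100A4 shRNA and 10.79, 10.66 and 10.71 with control shRNA (log2 fold -0.10, limma adjusted p = 0.398).

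The authors' deposited table of group means, ratios and p-values has other levels than the array values (r = 0.78 across genes). It gave smaller differences for all 14 called members. Some members that were not called differed more there and with the opposite sign, such as PSMA2 (0.18, against -0.057 here) and PSMD7 (0.16, against -0.0075). In the authors' deposited table all 14 called members had the same sign as here, and 36 of the 48 members did (15 of 17 regulatory, 14 of 19 core). The authors' deposited table gave PSMA4 a ratio of 0.693, which is -0.53 on the log2 scale. For PSMD1 the authors' deposited table had a ratio of 0.931, for PSMC5 0.842, for PSMC4 0.850, for PSMD10 0.881 and for PSME1 1.201. At an unadjusted p under 0.05, the authors' deposited table had 10 members lower (18.2% of all genes) and 4 higher (11.2% of all genes). Adjusted over the same genes, 0 members passed, and the smallest adjusted p from the authors' deposited table was 0.0522, for PSMA4. The median log2 difference of the members in the authors' deposited table was -0.060, against -0.057 over all genes.

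**Figure D4:**
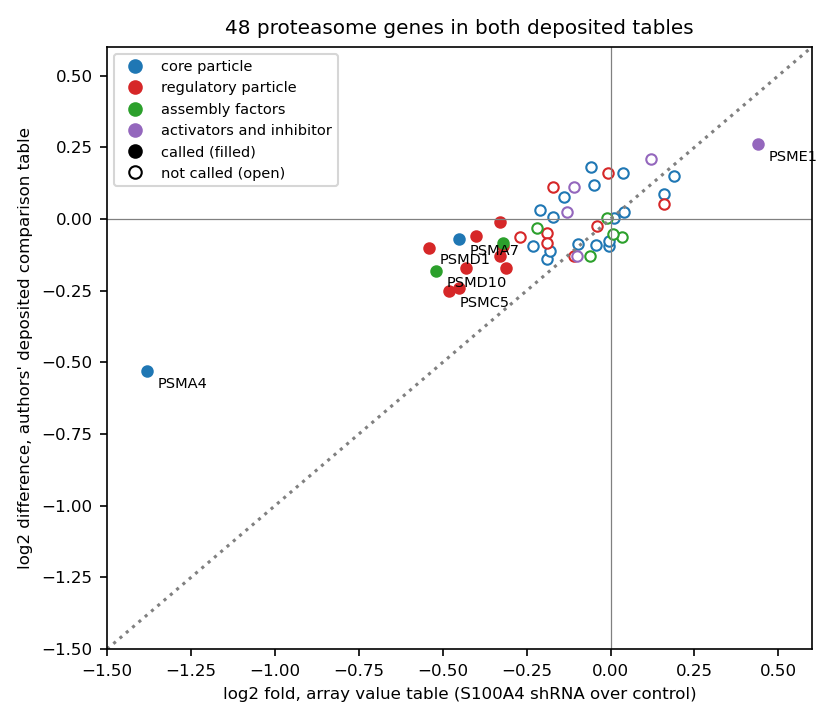
Log2 fold of S100A4 shRNA over control shRNA in the array value table (x axis) against the log2 difference in the authors' deposited table (y axis) for the 48 genes, filled where called by limma on the array values. Most filled points lie nearer 0 on the y axis than on the x axis (dotted line: equal values), and PSMA4 is the lowest in both, at -1.38 and -0.53.

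Genes that work with the proteasome but are no members were read off the same fit. Of 32 measured partners 1 fell, 1 rose and 30 were not called, with a median log2 fold of -0.068. That is 3.12% in each direction, against 5.49% of all genes called lower and 6.08% called higher. RAD23B, which carries ubiquitinated proteins to the proteasome, fell to 11.48 with S100A4 shRNA, against 11.83 with control shRNA (log2 fold -0.35, limma adjusted p = 0.0181). PAAF1, a chaperone of the base ATPases, rose to 7.68 with S100A4 shRNA, against 7.29 with control shRNA (log2 fold 0.38, limma adjusted p = 0.0162). The remaining subunits of the particle were not called: ADRM1, a ubiquitin receptor, had a log2 fold of -0.24 and SEM1 of -0.061. The core assembly factor POMP had a log2 fold of -0.22 and NFE2L1 of 0.049 (limma adjusted p = 0.206 and 0.741). Of the 9 subunits of the COP9 signalosome, a relative of the lid, COPS3 (log2 fold -0.43, limma adjusted p = 0.00487) and COPS2 (-0.38, 0.0297) fell and 7 were not called. The share called lower was 22.2%, against 5.49% of all genes. Without 1 array these calls were lost for COPS2 (5 of the 6 arrays left out in turn), PAAF1 (3) and RAD23B (2).

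Antigen presentation was set beside the immunoproteasome, since both respond to interferon. Of 20 such genes 5 rose (25%, against 6.08% of all genes), 3 fell (15%, against 5.49%) and 12 were not called. The class I genes HLA-C (log2 fold 0.43, limma adjusted p = 0.0116) and HLA-B (0.40, 0.0173) rose, as did the peptide-trimming enzyme ERAP1 (0.42, 0.0126). TAP1, the peptide transporter subunit, fell (-0.34, 0.0300), as did GBP1 (-0.28, 0.0323) and the chaperone CANX (-0.25, 0.0444). The count of 8 called genes was between 2 and 5 with 1 array left out, whichever array it was, and lowest without control shRNA replicate 3. The class I genes are near-identical copies in places, so their probes may share signal, which was not tested.

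The genes next to the 14 called members in order of start were also read off the same fit. Of 28 such neighbours that are no members, 3 fell, 3 rose and 22 were not called, with a median log2 fold of -0.012. That is 10.7% in each direction, against 5.49% of all genes called lower and 6.08% called higher. FTSJ3, next to PSMC5, fell (log2 fold -0.53, limma adjusted p = 0.00923), as did EIF4G1, next to PSMD2 (-0.31, 0.0444). EMC9, next to PSME1, fell (-0.38, 0.00829), in the opposite direction to PSME1. PRICKLE2 (0.87), PITPNC1 (0.53) and BRWD1 (0.37), next to PSMD6, PSMD12 and PSMG1, rose while those members fell. The calls of EIF4G1 and PITPNC1 were each lost when any of 5 arrays was left out, and that of BRWD1 with 1. Of the 48 members 21, and of the called members 7, have at least 1 pseudogene named after them in RefSeq, with 13 for PSMC1 and 3 for PSMD10. Whether such copies add to these probes' signal was not tested. PSMA4, PSMD1, PSMC4 and PSMC5 have none there.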

How the data were processed

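Per the labels, RNA from a Trizol extraction was amplified to cRNA, and single-stranded cDNA made from it was labelled with biotin. The authors deposited log2 signals of 70523 features on the 6 arrays, and the sources used here do not name the program that summarised them. Their scale was read from the values, whose highest is 19.93. The authors also deposited a table of log2 group means, an unadjusted p-value and a ratio (S100A4 shRNA over control shRNA) per cluster, per the file headers. The submitters' processing notes name Partek 6.0. Levels in that table correlate with the array values across genes at r = 0.78, and it was used for symbols and where named. Its second sheet repeats 26842 rows of the first and was left out.

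A gene symbol was given for 26831 clusters and updated through the RefSeq table of GRCh38.p14 by accession (22671), current symbol (2138) or older symbol (976). For 668 genes the cluster with the highest mean was kept. Control probe sets were left out, and no gene was filtered on signal or detection. limma 3.58.1 (lmFit and eBayes, two-sided) in R 4.3.3 was fitted over all 25141 genes with Benjamini-Hochberg adjustment, and 2910 genes (11.6%) were called. Intervals are 95% and from limma. No array pair was a duplicate (at most 0.0278% of values identical). limma was tested on simulated data with independent noise on every array. That cannot show how calls fare where arrays share an effect, and no result here rests on it. The number of arrays limits the precision. Alternatives left out each array, added a replicate block, changed scaling, filter, cluster choice, variance model or array weights, or used the authors' table.

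The members and gene lists were chosen with earlier results of these data known. The roles of members, the partner lists and the neighbours follow a written rule: every member may be named, and per-array values are given for called members and the 2 smallest p-values of each role. Those of PSMA3, PSMB5 and PSME2 were added after their values were seen. Called partners and neighbours are named, up to 4 per list and direction. A called gene of the antigen presentation list is not reported here by name. POMP, ADRM1, SEM1 and NFE2L1 were named for their roles.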

Additional observations from a re-analysis of the deposited data

How the results depend on the processing

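All 14 called members kept direction and call with the replicate block, 3 scalings, the upper 50% of genes by mean signal, the mean of clusters, eBayes with trend and robust, and array weights. With 1 array left out, between 7 and 10 of them kept the call, and 5 (PSMA4, PSMA7, PSMD1, PSMD2 and PSMD14) kept it each time.

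With 1 array left out, members called lower were between 6 and 10, higher between 0 and 1, and regulatory genes lower between 3 and 7: 4 without control shRNA replicate 1, 3 without control shRNA replicate 3 and 5 without S100A4 shRNA replicate 1 or replicate 2. Over all genes, between 777 and 1025 were called lower and between 762 and 1558 higher. Called partners were between 0 and 3, COP9 genes between 1 and 2, antigen presentation genes between 2 and 5, and neighbours between 3 and 6. The median of assembly factors ran from -0.121 to -0.016.

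The authors' deposited table called 270 genes lower and 262 higher, 0 members in either direction and in either particle, 0 partners, 0 COP9 genes, 0 antigen presentation genes and 1 neighbour. Its medians were -0.082 for the regulatory particle and 0.108 for activators and inhibitor, and its core minus regulatory difference was 0.050. The cause was not tested.

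Called partners were 4 with the replicate block, quantile normalisation or the upper 50% of genes, and COP9 genes were 1 with the block. The block changed no member's call. The labels give same-numbered arrays a shared number and nothing more. Over all genes their deviations from the group mean correlated at 0.084, 0.166 and -0.009. In the mean over all members, however, replicate 2 was the lowest of both groups (9.961 with S100A4 shRNA, 10.119 with control shRNA). Whether same-numbered arrays share an effect in these genes was not tested. The median of assembly factors was -0.113 with quantile normalisation and -0.14 over the upper 50% of genes, where fewer members are tested. Alternatives chosen after seeing the data moved the core minus regulatory difference to 0.183 without PSMA4 and 0.072 with the constitutive core. The core median turned to 0.003 in the authors' deposited table, and immunoproteasome minus constitutive ran from -0.025 to 0.145 with 1 array left out.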
